A study of Mus musculus with 6 samples.

Results

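The genes described here are those of Wnt signalling in a table of gene expression labelled as retinal pigment epithelium (RPE) and choroid: Wnt ligands, their receptors, the secreted antagonists, and the proteins that carry or limit the signal inside the cell. They were taken by symbol, whatever their values, and 49 of the 16191 rows of the table matched. Of these, 30 had a mean of at least 1 FPKM (fragment counts scaled to gene length and library size) over the 6 libraries, 7 lay between 0.1 and 1 FPKM, and 12 lay below 0.1 FPKM. The symbols WNT1, WNT2, WNT6, WNT8A, DKK4 and NKD2 were looked for as well and are not analysed here.

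By the labels and methods, C57BL/6J mice received, by subretinal injection, an AAV vector that carries human PDGF-D under the VMD2 promoter, which is active in the RPE, or the control vector with GFP. The methods give an age in weeks for the purchased mice, while the labels give no age and no other genetic change. RNA of the RPE-choroid complex was taken after 4 weeks, and 3 libraries are labelled AAV-PDGF-D and 3 are labelled AAV-GFP. The labels do not tell separate mice from repeat libraries, so every p-value here rests on the spread among 6 libraries, which may be technical.

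The rows of the table are human genes, although the labels describe mouse tissue, and it is not known whether the table belongs to the tissue and the injections that the labels describe. The values are therefore given for the libraries as labelled, and a difference between labels is not read as an effect of PDGF-D. The row of human PDGFD, the gene in the vector, stood at 5.24, 6.28 and 6.36 FPKM in the libraries labelled AAV-PDGF-D, against 6.87, 6.56 and 6.86 FPKM in those labelled AAV-GFP, so it was not higher with the PDGF-D label (log2 fold change -0.18, standard error 0.10, adjusted p = 0.213 from limma). Of 17 listed RPE genes with a row, 13 reached 1 FPKM in all 6 libraries, but RPE65, the isomerase of the visual cycle, ranged from 0.588 to 1.29 FPKM and BEST1, whose promoter is VMD2, from 0.336 to 0.539 FPKM. Of the endothelial markers that a choroid would hold, 1 of 8 reached 1 FPKM in all libraries, and PECAM1 stayed at or below 0.633 FPKM. Of the macrophage markers 1 of 7 did so, and PTPRC stayed at or below 0.0629 FPKM. In contrast, 8 of 8 fibroblast markers and 7 of 8 pericyte and smooth muscle markers did so. Hemoglobin genes were high in 2 libraries, AAV-PDGF-D replicate 3 and AAV-GFP replicate 1, with HBA1 at 219 and 168 FPKM, and at most 0.319 FPKM in the other 4. The table holds no counts, so absolute depth is unknown. The steps between the lowest values put the depth of the other 5 libraries at 1.01 to 1.2 times that of AAV-GFP replicate 1. Only 21.3 to 36.1% of the low rows lay on such a step, so these ratios are rough.

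Wnt proteins are secreted, lipid-modified ligands that bind a frizzled receptor. With the co-receptor LRP5 or LRP6, this halts the destruction complex built on AXIN1 and APC, and beta-catenin (CTNNB1) then enters the nucleus and acts with TCF/LEF factors. Other Wnt proteins signal through ROR or RYK receptors without beta-catenin. SFRP proteins and WIF1 bind the ligands, DKK1 blocks the co-receptors, and the ligases RNF43 and ZNRF3 remove frizzleds from the cell surface. In the eye, Wnt signalling is known for its part in forming the RPE and the ciliary margin and in the growth of retinal vessels. In bulk RNA such as this, fewer cells of a type and less RNA per cell cannot be told apart.

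Secreted antagonists were the most abundant of the Wnt genes that act outside the cell, and the ligands were low beside them. Since FPKM is scaled to gene length, levels can be set side by side between genes. The 8 antagonist rows summed to 528 ± 6.91 FPKM in the libraries labelled AAV-PDGF-D and 554 ± 5.82 FPKM in those labelled AAV-GFP (SD, n = 3 each). The 15 ligand rows summed to 51.6 ± 1.34 FPKM with the AAV-PDGF-D label and 56.7 ± 2.26 FPKM with the AAV-GFP label (SD, n = 3 each). The summed antagonist FPKM was thus 9.97 to 10.5 times the summed ligand FPKM in the first 3 libraries and 9.23 to 10.1 times in the others, ranges that overlap. Both sums were lower in all 3 libraries labelled AAV-PDGF-D. DKK3, counted as an antagonist by its family, made up 31.7 to 33.2% of the antagonist sum with the AAV-PDGF-D label. With the AAV-GFP label it made up 30.5 to 30.7%. The log2 fold change of DKK3 itself was 0.02 (adjusted p = 0.716 from limma). Its share also depends on the lower SFRP1 and SFRP5 in the same sum. Whether DKK3 acts as an antagonist here was not tested. The frizzled rows summed to 130 ± 2.81 and 136 ± 4.50 FPKM (SD, n = 3 each), in the same order of labels, and overlapped.

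**Figure D1:**
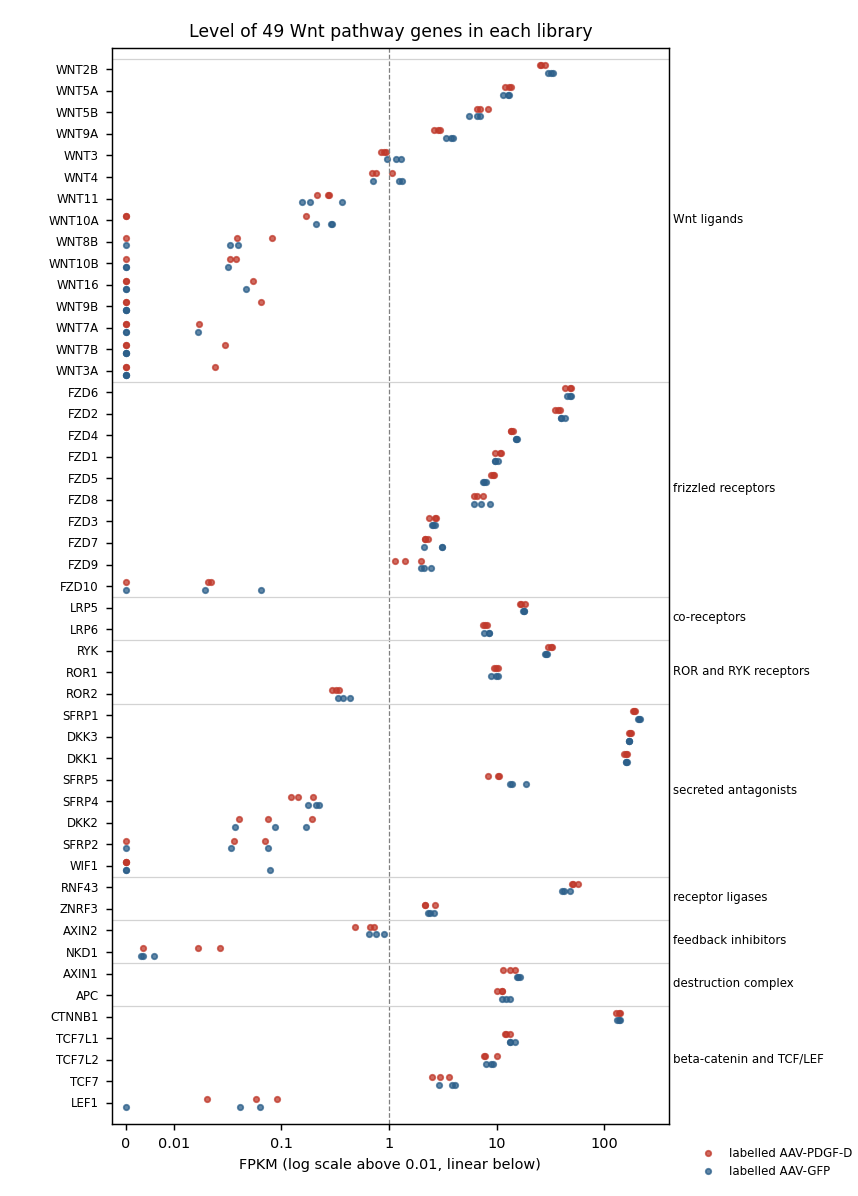
FPKM of each of the 49 Wnt pathway genes in each library, with 1 point per library (3 labelled AAV-PDGF-D, 3 labelled AAV-GFP), grouped by role, and a dashed line at 1 FPKM. SFRP1, DKK3, DKK1 and CTNNB1 lie at 129 FPKM or more in all 6 libraries, while 12 genes have a mean below 0.1 FPKM.

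**Figure D2:**
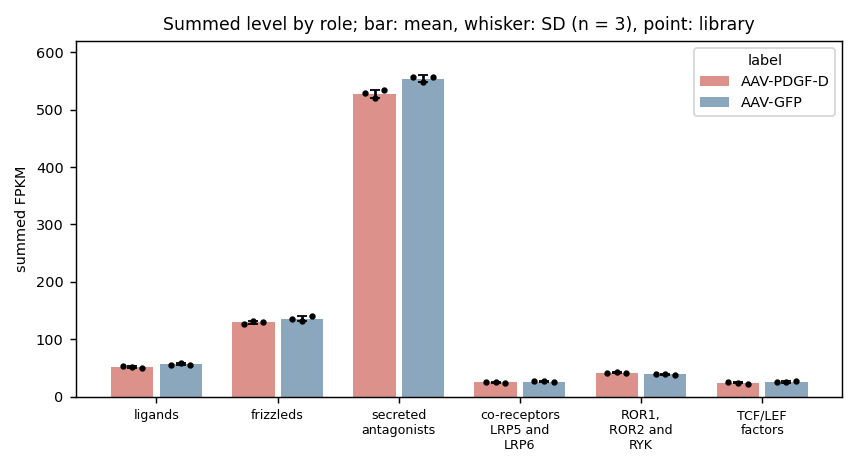
Summed FPKM of the rows of each role (bars show the mean, whiskers the SD of 3 libraries, points the libraries). Secreted antagonists stand at 528 FPKM with the AAV-PDGF-D label and 554 FPKM with the AAV-GFP label, against 51.6 and 56.7 FPKM for the ligands.

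Between the labels, 1 of these genes passed all limits of a call, and 9 of 30 passed the adjusted p alone. To be called, a gene had to reach 1 FPKM on average, differ by 1.5-fold or more and have an adjusted p no higher than 0.1 from limma. Of the 30 genes at 1 FPKM or more, 0 were called higher (2.01% of all 11444 rows at that level were called higher) and 1, SFRP5, was called lower (1.75% of all rows). Without the fold limit, 2 of 30, FZD5 and RNF43, passed the adjusted p and were higher, or 6.67%, against 20.9% of all rows. A further 7 of 30, or 23.3%, passed and were lower, against 11.7% of all rows. These were SFRP5, SFRP1, WNT2B, WNT9A, FZD9, FZD4 and AXIN1. The median log2 fold change over the 30 genes was -0.073, with 20 of 30 below 0, against 0.037 over all rows with 43.2% below 0. All 3 libraries labelled AAV-PDGF-D lay below all 3 labelled AAV-GFP for 10 of 30 genes, or 33.3%, against 16.4% of all rows, and above them for 3 of 30, or 10%, against 27.3% of all rows. The 95% interval of the fold change stayed wholly within 1.5-fold in either direction for 24 of 30 genes, or 80%, a share like that of all rows, 80.4%. The exceptions were SFRP5, FZD9, FZD7, WNT9A, WNT3 and TCF7.

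With any 1 library left out, 3 to 5 of the 30 genes passed the adjusted p and were lower, and 0 to 3 were higher. None was higher when AAV-GFP replicate 1 was left out, and none when AAV-PDGF-D replicate 2 was, while 3 were when AAV-PDGF-D replicate 1 was and 1 was in the other 3 cases. The lower genes numbered 5 when AAV-PDGF-D replicate 1 was left out, 4 for AAV-PDGF-D replicate 3 and for AAV-GFP replicate 1, and 3 in the other 3 cases. Of the 6 fits that each left out 1 library, SFRP5 and WNT2B passed the adjusted p in 6, SFRP1 in 4, RNF43 in 3, WNT9A and FZD5 in 2, FZD9 and AXIN1 in 1 and FZD4 in 0. With 2 libraries per label, after both libraries with hemoglobin were left out, 1 of the 9 genes that passed, SFRP5, still passed the adjusted p, and all 9 kept the sign of their fold change. The shares of all rows that passed the adjusted p in these smaller fits are not given here. The counts are therefore not read as a result about the Wnt genes. Over all rows, 230 were called higher and 200 lower, so 53.5% of the calls were higher. With median-of-ratios scaling this share was 43.4%, and with upper-quartile scaling it was 39.6%. With these 2 scalings and with TPM scaling, 24 of the 30 Wnt genes had a log2 fold change below 0, but these scalings shift all rows alike. The Wnt median lay 0.11 below that of all rows on the log2 scale as deposited, and 0.109 below it with each of the 3 scalings.

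**Figure D3:**
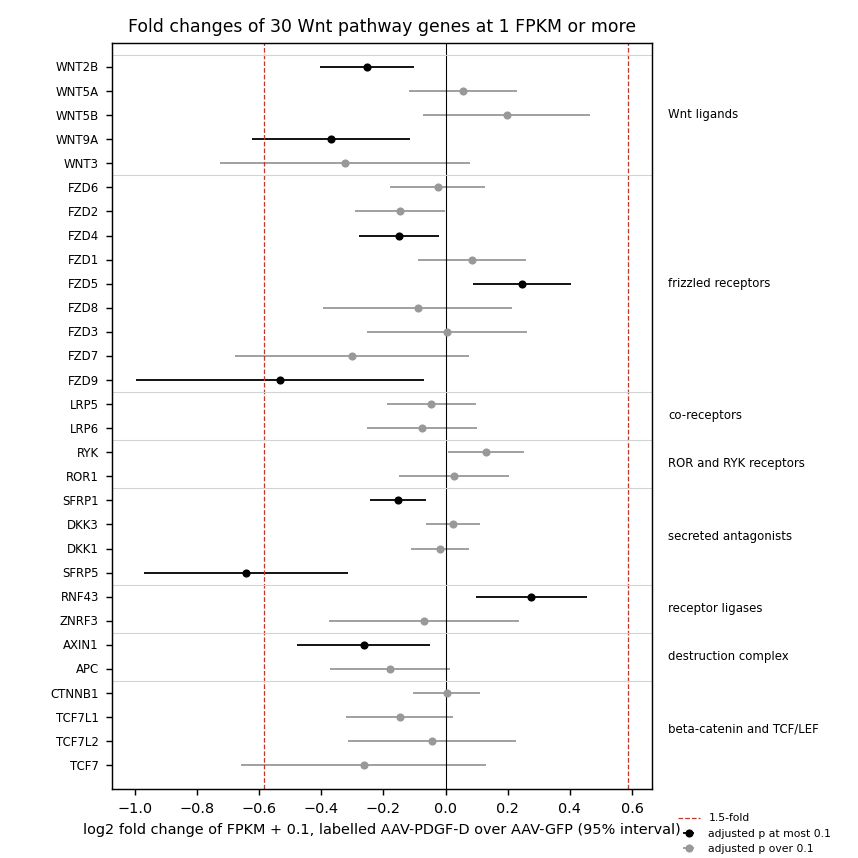
Log2 fold change of FPKM + 0.1 (points) with its 95% interval from limma for the 30 genes with a mean of at least 1 FPKM, by role, where values above 0 are higher with the AAV-PDGF-D label and dashed lines mark 1.5-fold. Black points passed the adjusted p of 0.1, and SFRP5 at -0.64 is the gene that also lies past the dashed line.

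Among the ligands, WNT2B, which signals through beta-catenin and is known from the ciliary margin of the eye, was the most abundant. WNT2B stood at 28.3, 25.7 and 25.4 FPKM in the libraries labelled AAV-PDGF-D, against 31.8, 33.2 and 29.6 FPKM in those labelled AAV-GFP. The groups did not overlap, and WNT2B was lower (log2 fold change -0.25, standard error 0.07, adjusted p = 0.0305 from limma). It made up 50.2 to 53.3% of the summed ligand FPKM with the AAV-PDGF-D label and 53.3 to 57.6% with the AAV-GFP label. WNT9A, a ligand known for its part in joint development, had 2.62, 2.87 and 2.98 FPKM in the libraries labelled AAV-PDGF-D, against 3.36, 3.74 and 3.94 FPKM in those labelled AAV-GFP. WNT9A was also lower (log2 fold change -0.37, standard error 0.11, adjusted p = 0.0513 from limma). Neither reached the fold limit for a call.

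The ligands known mainly for signalling without beta-catenin did not pass the test. WNT5A stood at 13.1, 13.5 and 12.0 FPKM with the AAV-PDGF-D label, against 11.5, 12.7 and 12.9 FPKM with the AAV-GFP label, and the groups overlapped. The 95% interval of its log2 fold change ran from -0.12 to 0.23. WNT5B, its close relative, averaged 7.28 ± 0.869 and 6.34 ± 0.711 FPKM (SD, n = 3 each), with an interval from -0.07 to 0.46. As shares of the summed ligand FPKM, WNT5A took 23.6 to 26.4% with the AAV-PDGF-D label and 20.9 to 23.2% with the AAV-GFP label, and WNT5B took 12.8 to 16.3% and 10.1 to 11.8%, so that neither share overlapped between labels. These shares also depend on the fall of WNT2B in the same sum. WNT3, a beta-catenin ligand, lay at the edge of the limit on the mean at 1.02 FPKM, and WNT4 just below it at 0.966 FPKM. WNT3 had 0.843, 0.888 and 0.931 FPKM in the libraries labelled AAV-PDGF-D, against 1.17, 0.958 and 1.30 FPKM in those labelled AAV-GFP, and did not pass (adjusted p = 0.23 from limma).

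The other 9 ligand rows were low. WNT11 ranged from 0.157 to 0.369 FPKM. WNT10A was listed at 0, 0.171 and 0 FPKM in the libraries labelled AAV-PDGF-D, against 0.296, 0.287 and 0.211 FPKM in those labelled AAV-GFP, a level too low for a call. WNT8B, WNT10B, WNT16, WNT9B, WNT7A, WNT7B and WNT3A had means below 0.1 FPKM, were listed at 0 in 2 to 5 of the 6 libraries and were not tested.

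Of the 10 frizzled rows, 9 had a mean of at least 1 FPKM. FZD6 and FZD2 led, with FZD6 at 42.7 to 49.4 FPKM and FZD2 at 34.7 to 43.4 FPKM over the 6 libraries, and these ranges overlapped. FZD4, the receptor of norrin in retinal vessel growth, came next at 13.5 to 15.4 FPKM, then FZD1 at 9.59 to 11.0 FPKM, FZD5 at 7.53 to 9.45 FPKM and FZD8 at 6.11 to 8.56 FPKM. FZD4 did not overlap with its neighbours, while FZD5 overlapped with FZD8. FZD3, FZD7 and FZD9 lay between 1.14 and 3.12 FPKM in every library, and FZD10 at or below 0.0641 FPKM.

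FZD5, a frizzled needed in eye development, was the frizzled that was higher with the AAV-PDGF-D label. It had 8.86, 9.22 and 9.45 FPKM in the libraries labelled AAV-PDGF-D, against 7.53, 7.99 and 7.65 FPKM in those labelled AAV-GFP. The groups did not overlap, and the log2 fold change was 0.25 (standard error 0.07, adjusted p = 0.0412 from limma). FZD4 had 13.5, 14.1 and 13.5 FPKM in the libraries labelled AAV-PDGF-D, against 15.4, 15.3 and 15.0 FPKM in those labelled AAV-GFP. Its difference was small and steady, at -0.15 on the log2 scale (standard error 0.06, adjusted p = 0.0975 from limma).

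FZD9 had 1.14, 1.98 and 1.41 FPKM in the libraries labelled AAV-PDGF-D, against 2.44, 2.00 and 2.11 FPKM in those labelled AAV-GFP. AAV-PDGF-D replicate 2 nearly met the lowest library labelled AAV-GFP, and the adjusted p of 0.0999 from limma lay at the limit (log2 fold change -0.53, standard error 0.20). Without AAV-PDGF-D replicate 2, FZD9 was called lower, at -0.73 on the log2 scale. With any of the other 5 libraries left out it did not pass (adjusted p = 0.136 to 0.238 from limma). FZD9 passed in 8 of 18 alternative settings. These include no fold limit and no minimum on the mean, which leave the p unchanged. FZD2 was lower in all 3 libraries labelled AAV-PDGF-D, at 38.9, 37.0 and 34.7 FPKM, against 39.7, 39.3 and 43.4 FPKM in those labelled AAV-GFP, but did not pass (log2 fold change -0.15, adjusted p = 0.14 from limma). FZD6, FZD1, FZD8, FZD3 and FZD7 overlapped between the labels and did not pass.

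The co-receptors differed little. LRP5 averaged 17.3 ± 1.06 FPKM with the AAV-PDGF-D label and 17.8 ± 0.293 FPKM with the AAV-GFP label (SD, n = 3 each), and the 95% interval of its log2 fold change ran from -0.19 to 0.10. LRP6 averaged 7.79 ± 0.285 and 8.23 ± 0.496 FPKM (SD, n = 3 each), with an interval from -0.25 to 0.10. RYK, a Wnt receptor with an inactive kinase domain, had 29.8, 32.6 and 31.8 FPKM in the libraries labelled AAV-PDGF-D, against 28.4, 29.4 and 28.2 FPKM in those labelled AAV-GFP. The groups did not overlap, but RYK did not pass the adjusted p (log2 fold change 0.13, standard error 0.05, adjusted p = 0.123 from limma). ROR1, a receptor of WNT5A, averaged 9.82 ± 0.358 and 9.65 ± 0.679 FPKM (SD, n = 3 each). Its relative ROR2 stayed at 0.294 to 0.437 FPKM.

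SFRP5, a secreted frizzled-related protein that binds Wnt ligands, was the called gene. It had 8.35, 10.2 and 10.6 FPKM in the libraries labelled AAV-PDGF-D, against 13.9, 13.2 and 18.7 FPKM in those labelled AAV-GFP. The groups did not overlap, and AAV-GFP replicate 3 was the highest. SFRP5 averaged 9.70 ± 1.18 and 15.3 ± 3.01 FPKM (SD, n = 3 each), which is -0.64 on the log2 scale (standard error 0.14, 95% interval -0.97 to -0.31, adjusted p = 0.018 from limma). The value lay close to the limit of 1.5-fold, and the call was lost without AAV-GFP replicate 3 (-0.49) and without AAV-PDGF-D replicate 1 (-0.54). Without both libraries with hemoglobin it was -0.76 (adjusted p = 0.0744 from limma). In all 18 alternative settings SFRP5 passed the adjusted p, though no fold limit and no minimum on the mean leave that p unchanged.

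Some RPE and melanocyte markers also differed between the labels, and most that passed the adjusted p were lower with the AAV-PDGF-D label. Of the 17 RPE genes with a row, 1 passed the adjusted p and was higher, KRT8. A further 5 passed and were lower, which were PMEL, TYRP1, SERPINF1, OTX2 and CRIM1. Of all rows at 1 FPKM or more, 20.9% passed and were higher and 11.7% passed and were lower. The 17 RPE genes are not limited to that level, since RPE65, BEST1 and LRAT averaged 0.869, 0.424 and 0.145 FPKM. PMEL, a melanosome protein, had 36.3, 38.0 and 35.8 FPKM with the AAV-PDGF-D label, against 67.4, 54.7 and 76.7 FPKM with the AAV-GFP label, a log2 fold change of -0.84 (adjusted p = 0.00293 from limma). TYRP1, a melanin enzyme, had a log2 fold change of -0.80, the secreted factor SERPINF1 of -0.33 and the transcription factor OTX2 of -0.30, while MITF, the pigment cell regulator, did not pass, at 0.07. The 17 RPE genes summed to 3789 to 3878 FPKM with the AAV-PDGF-D label and 3632 to 3764 FPKM with the AAV-GFP label, but 73.5% of the sum came from 3 genes that many epithelia express, KRT8, KRT18 and EZR. TYR, tyrosinase, which RPE and choroidal melanocytes share, had 27.2, 30.2 and 31.1 FPKM with the AAV-PDGF-D label, against 40.8, 31.8 and 48.8 FPKM with the AAV-GFP label, and was also highest in AAV-GFP replicate 3. The 5 melanocyte markers, of which 1 reached 1 FPKM in all libraries and none was at 0 throughout, summed to 28.3 to 32.3 FPKM with the AAV-PDGF-D label and 33.4 to 50.8 FPKM with the AAV-GFP label. Of these 5, TYR and SOX10 passed the adjusted p and were lower, and MLANA, KIT and DCT did not pass. SOX10 averaged 0.243 FPKM, below the limit on the mean. The pericyte and smooth muscle markers summed to 1800 to 1879 FPKM and 1907 to 2081 FPKM, in the same order of labels, with MYH11 at or below 0.0263 FPKM. Of this sum, 96.7% came from 3 genes, TAGLN, ACTA2 and PDGFRB. ACTA2 and PDGFRB passed the adjusted p and were lower, DES passed and was higher, and TAGLN did not pass. Markers of other lists differed too. Of the 8 fibroblast markers, COL3A1, DCN, COL1A2 and LUM passed and were lower, and THY1 passed and was higher. The endothelial marker KDR and the macrophage marker CSF1R passed and were lower, while CD68, also of the macrophage list, passed and was higher. The part of any of these cell types in the SFRP5 difference was not tested.

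**Figure D4:**
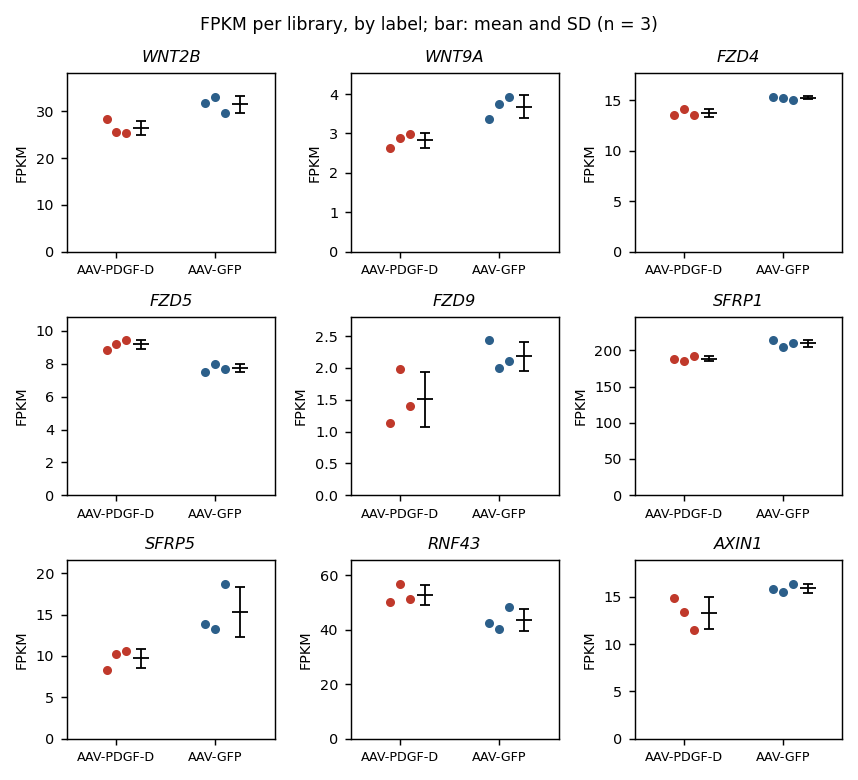
FPKM per library of the 9 genes that passed the adjusted p of 0.1 (coloured points), with the mean and SD of 3 libraries beside them, and axes from 0. In each panel the libraries labelled AAV-PDGF-D and AAV-GFP do not overlap, and SFRP5 shows its highest value, 18.7 FPKM, in AAV-GFP replicate 3.

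SFRP1, an abundant relative of SFRP5, was lower by a small amount. It had 188, 185 and 192 FPKM in the libraries labelled AAV-PDGF-D, against 214, 205 and 210 FPKM in those labelled AAV-GFP. The groups did not overlap, and the log2 fold change was -0.15 (standard error 0.04, adjusted p = 0.0302 from limma). SFRP1 took 35.5 to 36.0% of the summed antagonist FPKM with the AAV-PDGF-D label and 37.4 to 38.4% with the AAV-GFP label. SFRP5 took 1.58 to 1.98% and 2.42 to 3.36%.

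The abundant dickkopf genes did not pass the test, and their intervals were narrow. DKK1, which binds LRP5 and LRP6, had 158, 152 and 162 FPKM in the libraries labelled AAV-PDGF-D, against 158, 161 and 159 FPKM in those labelled AAV-GFP, and the 95% interval of its log2 fold change ran from -0.11 to 0.08. DKK3, a divergent member of the family, had 176, 173 and 169 FPKM in the libraries labelled AAV-PDGF-D, against 171, 168 and 170 FPKM in those labelled AAV-GFP, with an interval from -0.06 to 0.11. SFRP4, DKK2, SFRP2 and WIF1 stayed at or below 0.225 FPKM in every library, and WIF1 was listed at 0 in 5 of 6.

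RNF43, the ligase that marks frizzleds for removal, was higher with the AAV-PDGF-D label. It had 50.0, 56.9 and 51.4 FPKM in the libraries labelled AAV-PDGF-D, against 42.5, 40.3 and 48.2 FPKM in those labelled AAV-GFP. The groups did not overlap, and the log2 fold change was 0.28 (standard error 0.08, adjusted p = 0.0416 from limma), short of the fold limit. Its partner ZNRF3 was far less abundant, at 2.34 ± 0.314 and 2.45 ± 0.153 FPKM (SD, n = 3 each), and overlapped.

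RNF43, ZNRF3, AXIN2 and NKD1 are known as genes that beta-catenin turns on and that then limit the signal. Their levels were unlike each other. AXIN2, the most widely used readout of the pathway, had 0.662, 0.720 and 0.478 FPKM in the libraries labelled AAV-PDGF-D, against 0.645, 0.756 and 0.899 FPKM in those labelled AAV-GFP, and did not pass (log2 fold change -0.27, standard error 0.22, adjusted p = 0.431 from limma). NKD1 stayed at or below 0.0270 FPKM and was not tested.

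AXIN1, the scaffold of the destruction complex, had 14.9, 13.4 and 11.5 FPKM in the libraries labelled AAV-PDGF-D, against 15.8, 15.5 and 16.4 FPKM in those labelled AAV-GFP. AXIN1 was lower (log2 fold change -0.26, standard error 0.09, adjusted p = 0.0829 from limma). The lowest value came from AAV-PDGF-D replicate 3, 1 of the 2 libraries with hemoglobin, and without both of these the log2 fold change was -0.17 (adjusted p = 0.289 from limma). APC, the other large protein of the complex, had 11.2, 10.1 and 11.1 FPKM with the AAV-PDGF-D label, against 11.2, 13.4 and 12.2 FPKM with the AAV-GFP label, and did not pass (log2 fold change -0.18, adjusted p = 0.172 from limma).

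CTNNB1 itself did not pass the test. It had 140, 137 and 129 FPKM in the libraries labelled AAV-PDGF-D, against 138, 136 and 130 FPKM in those labelled AAV-GFP, and the 95% interval of its log2 fold change ran from -0.10 to 0.11. Transcript level does not show how much beta-catenin protein is stable or nuclear. Of its DNA-binding partners, TCF7L1, known mainly as a repressor, led at 12.4 ± 0.778 and 13.8 ± 0.879 FPKM (SD, n = 3 each). TCF7L2 averaged 8.48 ± 1.34 and 8.69 ± 0.683 FPKM and TCF7 3.01 ± 0.544 and 3.63 ± 0.622 FPKM (SD, n = 3 each). LEF1 stayed at or below 0.0908 FPKM. None of these factors passed the test.

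The rest of the pathway was taken from lists of 71 further genes, of which 64 had a row and 49 a mean of at least 1 FPKM. Of these 49, 0 were called higher and 0 lower. Without the fold limit, 6 of 49, or 12.2%, passed and were higher, and 9 of 49, or 18.4%, passed and were lower, against the same 20.9% and 11.7% of all rows. Their median log2 fold change was -0.05.

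WLS, which carries Wnt ligands to the cell surface, had 77.2, 75.2 and 75.2 FPKM in the libraries labelled AAV-PDGF-D, against 76.5, 78.3 and 74.4 FPKM in those labelled AAV-GFP, a log2 fold change of -0.01. LGR4, the receptor of R-spondins, which hold RNF43 and ZNRF3 in check, was higher, at 12.2, 11.0 and 12.4 FPKM with the AAV-PDGF-D label, against 8.95, 9.46 and 9.02 FPKM with the AAV-GFP label (log2 fold change 0.37, standard error 0.07, adjusted p = 0.0118 from limma). RSPO2, an R-spondin, stayed at or below 1.06 FPKM in every library.

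CTHRC1, a secreted glycoprotein that binds Wnt and frizzled, was the nearest of these genes to a call. It had 8.44, 9.48 and 9.27 FPKM in the libraries labelled AAV-PDGF-D, against 12.3, 12.1 and 15.3 FPKM in those labelled AAV-GFP (log2 fold change -0.54, standard error 0.10, adjusted p = 0.0103 from limma). PTK7, a receptor of planar polarity signalling, was lower, at 59.6, 54.3 and 56.3 FPKM with the AAV-PDGF-D label, against 70.7, 75.9 and 74.3 FPKM with the AAV-GFP label (log2 fold change -0.38, standard error 0.05, adjusted p = 0.0037 from limma). DVL3, a dishevelled protein that relays the signal from frizzleds, was lower by a log2 fold change of -0.20 (adjusted p = 0.0235 from limma), while the kinase CSNK1A1 did not pass, with 0.08.

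Of the genes reported as targets of beta-catenin, the 2 most abundant differed in their result. CCND1, cyclin D1, had 587, 567 and 566 FPKM in the libraries labelled AAV-PDGF-D, against 446, 440 and 436 FPKM in those labelled AAV-GFP (log2 fold change 0.38, standard error 0.04, adjusted p = 0.00137 from limma). MYC had 72.6, 83.5 and 77.9 FPKM with the AAV-PDGF-D label, against 75.1, 81.6 and 77.9 FPKM with the AAV-GFP label, and its log2 fold change was -0.01. The other listed targets at 1 FPKM or more were FOSL1, CD44, PPARD, TNFRSF19 and JUN. FOSL1, CD44 and PPARD passed the adjusted p and were higher, with log2 fold changes of 0.50, 0.22 and 0.18. TNFRSF19 passed and was lower, at -0.26, and JUN did not pass, at 0.11. CCND1 and MYC also answer to many other pathways. GPC6, TPBG, CTBP1, TLE1 and SCRIB, the other abundant members of their lists, did not pass.

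**Figure D5:**
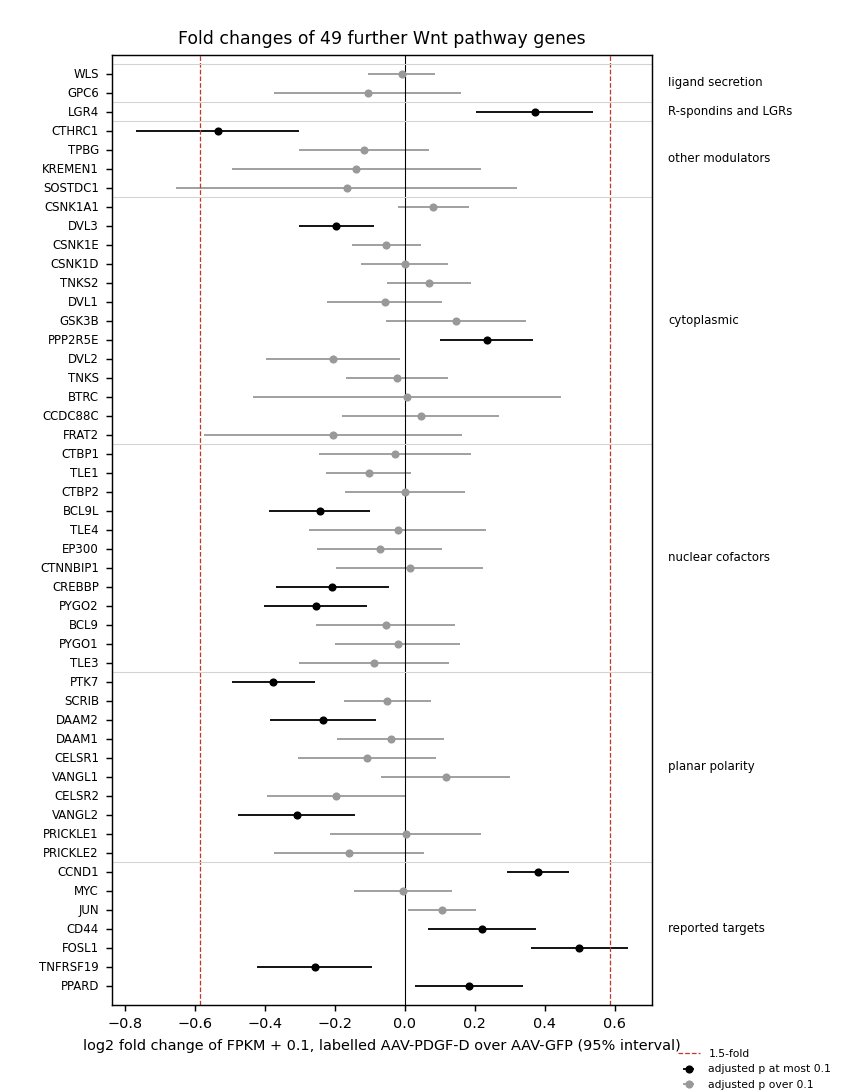
Log2 fold change of FPKM + 0.1 (points) with its 95% interval from limma for 49 further Wnt pathway genes, by list, where values above 0 are higher with the AAV-PDGF-D label and dashed lines mark 1.5-fold. No point lies past a dashed line, with CTHRC1 at -0.54 the lowest and CCND1 at 0.38 among the highest.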

How the data were processed

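The deposited table holds 1 column of FPKM per library, which the authors obtained with STAR 2.4.2a and RSEM 1.2.29, per the methods and the submitters' processing notes. These name the mouse build mm10, while the rows are human Ensembl genes. The human rows have a build and annotation not given in the sources used here, so no coordinates or sequences are printed and overlaps with neighbouring genes were not checked. RSEM divides reads that match several genes by a model, which can blur close paralogs such as FZD1, FZD2 and FZD7.

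The labels were compared on log2(FPKM + 0.1) by limma 3.58.1 (R 4.3.3), its variance trend switched on. The fit held 13821 rows, those averaging 0.1 FPKM or more, and Benjamini-Hochberg adjustment covered all of them. Fold changes are on that scale, which understates changes of low genes. Named are all genes averaging 1 FPKM or more and, of the further lists, the 2 most abundant of each and all reported targets at that level. The authors' DESeq2 comparison needs counts and was not rerun. The script was tested on simulated data. Relative depth is the commonest ratio between libraries over rows with a mean below 0.06 FPKM, after ratios far from equal were set aside. Genes and lists were chosen with earlier results of these data known. Alternatives were other pseudocounts, filters, scalings, a fit without the trend, other limits, a replicate block and left-out libraries.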

Additional observations from a re-analysis of the deposited data

How the results depend on the processing

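SFRP5 was the Wnt gene called lower, and no fold limit gave 2 called higher and 7 lower, while no minimum on the mean gave 2 lower, SFRP5 and WNT10A. Leaving out 1 library gave 0 higher and 0 to 2 lower. The median log2 fold change of the 30 genes, -0.073, was -0.103 with TPM scaling, -0.109 with median-of-ratios scaling and -0.125 with upper-quartile scaling, beside all-row medians of 0.0367 as deposited and 0.00594, -0.000422 and -0.0159 with these scalings. With 1 library left out, the median of the 30 genes was -0.112 to -0.0601. Over all rows, 230 called higher and 200 lower became 148 and 110 with a pseudocount of 1. They became 2396 and 1341 with no fold limit, and 332 and 321 with no minimum on the mean. With 1 library left out, 213 to 271 were higher and 140 to 232 lower. Of the further Wnt genes, 0 were called, against 6 higher and 9 lower with no fold limit, and 1 lower with upper-quartile scaling and without both libraries with hemoglobin (CTHRC1 in each), and with no minimum on the mean (RSPO3, named after its values were seen). Leaving out 1 library gave 0 to 1 lower and 0 higher. Replicate numbers did not pair the libraries, with residual correlations of -0.202, 0.00389 and -0.135 for numbers 1, 2 and 3. The highest value, 0.291, was for AAV-PDGF-D replicate 3 with AAV-GFP replicate 1, the libraries with hemoglobin. AAV-PDGF-D replicate 1 with AAV-GFP replicate 2 had 0.206, and AAV-PDGF-D replicate 2 with AAV-GFP replicate 3 had 0.161. A pairing by these matches was not fitted. The replicate block, by number, called 234 rows higher and 199 lower, with 1 Wnt gene higher and 4 lower by adjusted p alone. Without a variance trend these were 1 and 3. The shares of all rows that passed the adjusted p alone in these fits are not given here. The fold change of 8 of the 30 genes changed sign in some setting, each smaller than its standard error. The causes were not tested. Without counts, the depth behind genes below 1 FPKM is unknown.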

Other observations

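Among Wnt genes below the limit on the mean, 2 passed the adjusted p between the labels and were chosen after their values were seen. RSPO3, an R-spondin that sustains frizzled receptors at the cell surface, was listed at 0.0496, 0 and 0.0478 FPKM in the libraries labelled AAV-PDGF-D, against 0.313, 0.178 and 0.400 FPKM in those labelled AAV-GFP, with an adjusted p of 0.0264 from limma. WNT10A, given above, had an adjusted p of 0.0741 from limma. No fold is given, since both hold libraries at 0 and the reads behind such values are unknown. FOSL1, a reported beta-catenin target and a part of the AP-1 transcription factor, had the largest rise of the further Wnt genes at 1 FPKM or more and was likewise chosen after its values were seen. It had 24.7, 22.9 and 22.4 FPKM in the libraries labelled AAV-PDGF-D, against 17.1, 16.3 and 16.1 FPKM in those labelled AAV-GFP (log2 fold change 0.50, standard error 0.06, adjusted p = 0.00248 from limma).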
